A study of Schizosaccharomyces pombe with 2 samples.

Results

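Fission yeast genes whose transcripts were almost fully spliced, and which lie outside the ribosomal protein set, numbered 47 of the 1144 genes in the files. They were chosen by the measured unspliced percentage itself. It is the share of premature (unspliced) counts among a gene's mature (spliced) and premature counts together, the classes being read from their names. Its mean over both libraries had to be under 1%. Each library also had to hold 50 or more mature and premature counts for the gene, which 864 genes met. Of the 93 genes under 1%, 35 had a RefSeq symbol starting with rpl, rps, rpp or mrp, 8 were named exceptions, and 3 had an intron in the 5′ UTR. The exceptions, left out by name, were gap1, map3, bpb1, smb1, rpt2, cdc48, arp2 and tuf1. Without regard to the threshold, 737 genes met the other criteria, and the 690 of them at 1% or more are called the other eligible genes. Because the unspliced percentage chose the 47 genes, its level in them is described and not tested.

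The values come from multiplexed primer extension sequencing (MPE-seq), in which reverse transcription is primed beside chosen introns, so that reads concentrate where spliced and unspliced RNA can be told apart. Both libraries, replicate 1 and replicate 2, are from Schizosaccharomyces pombe of the Bioneer wild-type strain, with no other genotype or treatment in the series. The yeast grew in YES, a rich medium, at 30 °C and was in log phase at an OD600 of 0.8. The labels do not state whether each library had its own culture, so the spread between them may be technical. Replicate 1 held 5796068 exonic, 634306 mature and 53090 premature counts, and replicate 2 held 10009017, 1194460 and 82204.

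As background, an intron is removed in steps that begin when the 5′ splice site and the branch point are recognised. The branch point is an adenosine a short way upstream of the intron's end, and it attacks the 5′ splice site to form a lariat. Most fission yeast introns are short, and transcripts that keep an intron often carry an early stop codon and can be degraded. The unspliced percentage at steady state therefore reflects splicing speed, the decay of each form and transcripts not yet processed, which these counts do not separate.

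The introns of 12 of the 47 genes are shown as their last 30 bases, because the branch point region and the 3′ splice site lie there. They belong to the 9 genes with an annotated intron among the 10 lowest means, followed by the 3 largest count sums not already among them. Sequences were read from the RefSeq genome, assembly ASM294v3, by gene identifier, since the authors' build is not given in the sources used here. They run 5′ to 3′ on the transcribed strand, with capitals marking the final AG and the branch motif nearest the end. Motifs searched on that strand, in the last 50 bases, were CTAAC or CTGAC or CTAAT or CTGAT.
yap18: ttatctccatattaacaacatttttaaaAG
hmt1: ctcgcttcatattgCTAATttcatttttAG
int6: atacaggagaatgttttCTAACctttatAG
erd101: ttactaataCTAACaatctctattctttAG
rpt6: tatttaattaattgttaacataaaatgtAG
apl6: tgtatttaaacgactCTAACatgatattAG
tif307: atttttttgtgaaagaaaCTAACaaagtAG
rce1: atcactccacattctcacaagtctttttAG
bsd1: tgatatatcagtCTAACaaatctattttAG
SPBC577.03c: acaagttctaatcattttCTAACgatatAG
snu13: attcgttttattgcataCTAACattgttAG
nop10: ttggtataatgatagtgttCTAACgattAG

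Of these 12 introns, CTAAC was found in 8 and CTAAT in 1, while yap18, rpt6 and rce1 held none of the 4 motifs in the window. All 12 lie in coding sequence. On the plus strand the whole introns run over chrI:2503958-2504007 in apl6, chrII:1773034-1773074 in tif307 and chrI:904629-904679 in rce1. On the minus strand they run over chrII:3234208-3234253 in yap18, chrIII:1917223-1917344 in hmt1, chrII:940172-940227 in int6, chrI:647678-647729 in erd101 and chrII:2122688-2122729 in rpt6. The others on the minus strand run over chrI:3492399-3492466 in bsd1, chrII:756024-756096 in SPBC577.03c, chrI:2041296-2041445 in snu13 and chrI:1635275-1635326 in nop10. The first 6 bases, the 5′ splice site, were GTATGT in rpt6 and tif307 and also in SPBC577.03c and snu13, and GTAAGT in yap18 and apl6 and also in rce1 and nop10. The other 4 introns began with GTACGT in hmt1, GTAAGC in int6, GTATGA in erd101 and GTAAGG in bsd1.

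Summed over the 47 genes, 274 premature counts stood against 41247 mature counts in replicate 1, which is 0.660% unspliced (95% Wilson interval 0.586 to 0.742). In replicate 2, 411 stood against 76426, which is 0.535% (0.486 to 0.589). The other eligible genes gave 15.1% and 14.3% in the same order. The median of the 47 gene means was 0.635%, from 0% to 0.988%, against a median of 9.11% in the other eligible genes. Intervals cover counting error only, since amplified reads need not be independent molecules.

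Few premature reads stand behind each value. In 33 of the 47 genes both libraries together held 10 or fewer, and 3 genes held none. The upper Wilson limit lay under 1% in each library for 6 genes, which were int6, erd101, tif307, tif212, snu13 and SPBC577.03c. On the pooled counts it lay under 1% for 12 genes. In 27 genes both libraries were under 1%, and in the other 20 at least 1 library reached 1% or more. Membership is thus well determined for a small part of the set, and for the rest it depends on a few reads.

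**Figure D1:**
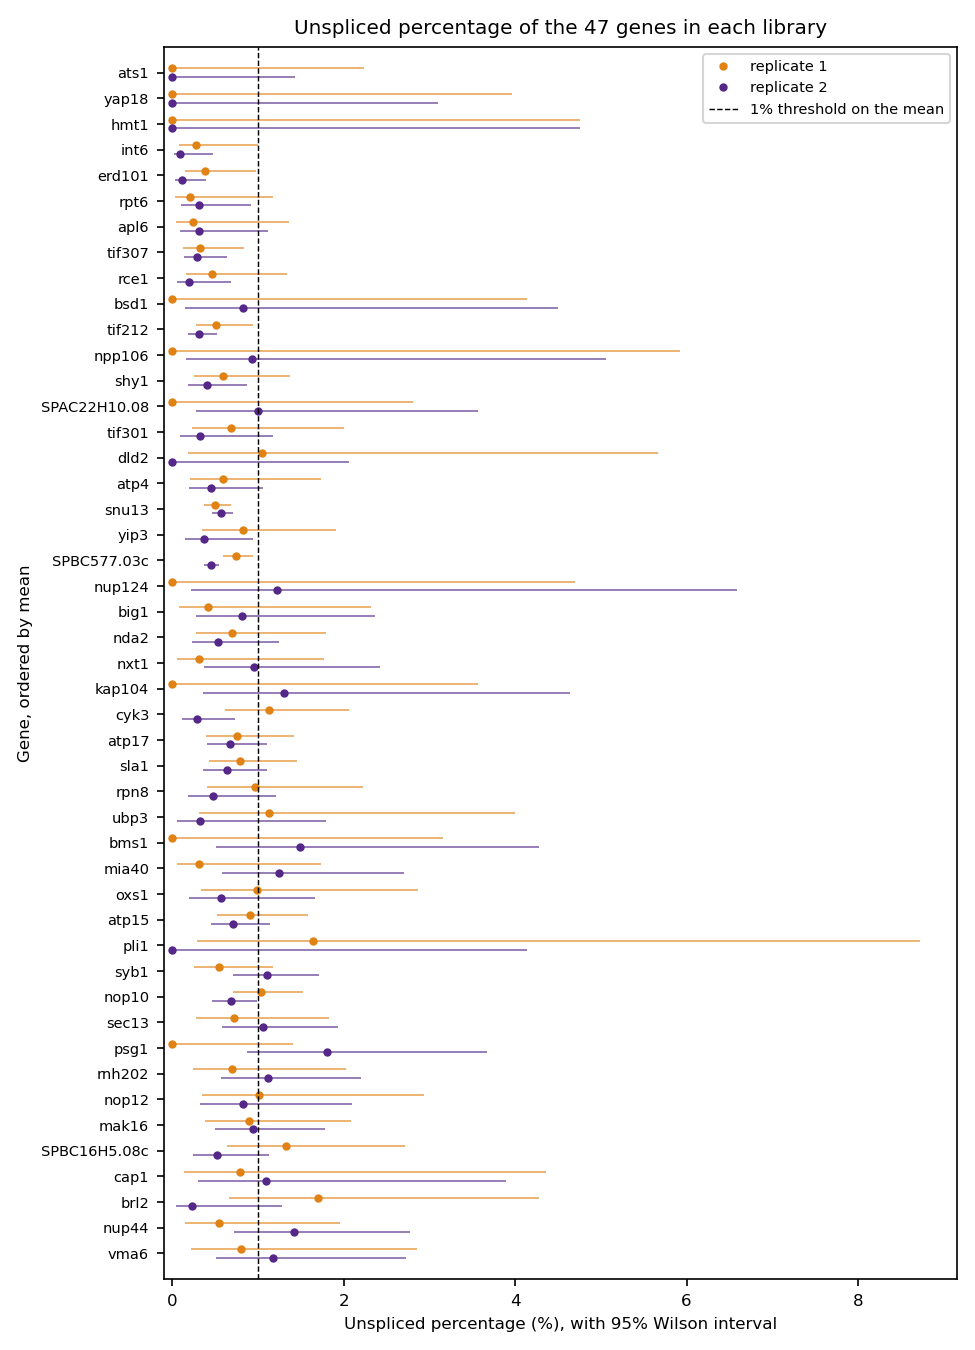
Unspliced percentage (x axis, %) of each of the 47 genes (y axis, ordered by mean) in replicate 1 (orange) and replicate 2 (purple), with 95% Wilson intervals as bars and the 1% threshold dashed. In 6 genes both bars end below 1%, and 27 genes have both points below it.

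No difference between the libraries was called among the 47 genes, but the test had little room to find one. It used the same counts as the rule, which keeps the mean under 1%, and most of these genes had few premature reads. By a two-sided Fisher exact test per gene, adjusted by Benjamini-Hochberg over all 864 measured genes, 14 genes (1.62%) differed at 0.05 in the series, and 0 of the 47 did. With so low a share in the series, the 0 is not read as a result about the set. Before adjustment, 3 of the 47 passed 0.05, namely SPBC577.03c, cyk3 and psg1, beside 89 of the 864. A normal test in place of Fisher's, with its error scaled by the overdispersion between libraries, passed 2 unadjusted and 0 after adjustment. The lowest adjusted p was 0.0618, for SPBC577.03c, at 0.749% in replicate 1 and 0.446% in replicate 2. It was 0.0313 when only genes with 200 or more counts in each library were tested, so this call depends on how many genes enter. In replicate 2, 20 genes of the set were higher, 24 lower and 3 equal, beside 323, 525 and 16 of all measured genes.

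The order of the 47 genes was not shared by the libraries, with a Spearman rho of -0.17 across them. Choosing on the mean of both libraries itself ties the values, since a high value in 1 library can enter only beside a low value in the other. A choice made in 1 library and read in the other avoids this. Of 54 eligible genes under 1% in replicate 1, 27 (50%) were under 1% in replicate 2, 45 were under 2% and 53 were under 5%. Of 48 under 1% in replicate 2, 27 (56.3%) were under 1% in replicate 1, and all 48 were under 5%. Among all 737 eligible genes, 6.51% were under 1% in replicate 2 and 7.33% in replicate 1. Under 5% were 35.4% and 34.7% of them in the same order, and 120 were under 2% in replicate 2. The highest value in the library not used for choosing was that of the nucleoporin gene nup132, with 0 of 65 counts premature in replicate 1 and 6 of 91 in replicate 2, and its mean of 3.30% kept it out of the set.

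Genes without a premature read were ats1, yap18 and hmt1. The gene ats1 (SPAC10F6.04), whose product holds an RCC domain, had 168 mature counts in replicate 1 and 265 in replicate 2. A share of up to 1.79% and 1.13% is allowed by these counts. RefSeq annotates no intron of 20 nt or more in ats1, and its counts could not be assigned to one. The gene yap18 (SPBC19F8.03c), an ENTH/VHS domain protein of a kind that acts in endocytosis, had 93 and 120 mature counts, which allow up to 3.23% and 2.50%. The vacuolar transporter gene hmt1 (SPCC737.09c), which carries phytochelatins into the vacuole, had 77 in each, which allows up to 3.90%. These 3 genes head the list by their point values and are among its less certain ones.

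Translation initiation factors were represented by 4 genes with many exonic counts. The gene int6 (SPBC646.09c) encodes subunit e of eIF3, the complex that assembles on the small ribosomal subunit. It had 2 premature beside 724 mature counts in replicate 1 and 1 beside 1186 in replicate 2, or 0.180% ± 0.135 (SD, n = 2). The gene tif307 (SPBC18H10.03) for eIF3g had 4 beside 1225 and 6 beside 2043, or 0.309% ± 0.0231. Both libraries thus placed these eIF3 genes below 0.4%. The gene tif301 (SPBC17D11.05) for eIF3a, the scaffold subunit, had 3 beside 433 and 2 beside 615, or 0.506% ± 0.257. For eIF2 beta, part of the factor that brings the initiator tRNA, tif212 (SPAC32A11.04c) had 10 beside 1936 and 13 beside 4228, or 0.410% ± 0.147.

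By the rule, all other eligible genes with initiation factor products were at 1% or more, and only their spread is described. Of 11 measured and eligible ones, found by words in the RefSeq product name, the 4 above were under 1%, 5 were under 2% and the median was 2.65%. Over all eligible genes 47 of 737 were under 1%, to be read beside this and the later family counts. The gene sui1 for eIF1 was at 1.2% ± 0.181 with an intron of 215 nt. The gene tif310, for the eIF3j subunit, was at 2.87% ± 0.192 with an intron of 43 nt. The highest, trm6, whose product name cites an eIF3 subunit, was at 13.5% ± 2.05. Its counterpart in Saccharomyces cerevisiae is part of a tRNA methyltransferase. A further translation gene, oxs1 (SPBC29A10.12), with a product named for ribosome recycling and transcription coactivation, had 3 premature in each library beside 300 and 522 mature counts.

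Protein turnover and modification contributed rpt6, rpn8, ubp3, pli1, brl2 and rce1. The gene rpt6 (SPBC23G7.12c), an ATPase that helps unfold substrates of the proteasome, had 1 premature beside 477 mature counts in replicate 1 and 3 beside 956 in replicate 2, or 0.261% ± 0.0733. The lid subunit gene rpn8 (SPCC1682.10) was at 0.716% ± 0.345. Of 10 measured and eligible genes with proteasome products, these 2 were under 1% and the median was 2.02%. The proteasome gene rpt2, also under 1%, was left out by name and is not among the 10. The ATPase subunit gene rpt4, with an intron of 473 nt, was at 16.2% ± 2.07. The highest of the family was the assembly protein gene nas2, at 27.3% ± 0.286 with an intron of 71 nt.

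Within the same functional class, rce1 (SPAC1687.02), the protease that trims prenylated proteins at their CAAX end, had 3 beside 649 and 2 beside 1053, or 0.325% ± 0.191. The deubiquitinase gene ubp3 (SPBP8B7.21) was at 0.722% ± 0.568, and its intron of 38 nt was the shortest of the 45 annotated ones. The SUMO ligase gene pli1 (SPAC1687.05) had 1 premature beside 60 mature counts, then 0 beside 89, or 0.820% ± 1.16. These low junction counts stood beside 23578 and 42941 exonic counts. RefSeq places the ribosomal protein gene rpl44 over part of pli1 on the opposite strand and mcb1 on the same strand, so its exonic counts may hold reads of these genes. The histone H2B ubiquitin ligase gene brl2 (SPCC970.10c) lay close to the threshold, with 4 beside 232 in replicate 1 and 1 beside 436 in replicate 2, or 0.962% ± 1.04.

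Vesicle traffic and vacuolar genes were apl6, erd101, yip3, syb1, sec13 and vma6, besides yap18 and hmt1. The gene apl6 (SPAC23H3.06), a subunit of the AP-3 adaptor that sorts cargo to the vacuole, had 1 premature beside 410 mature counts and 2 beside 648, or 0.276% ± 0.0455. The EXS domain gene erd101 (SPAC1D4.05c) had 4 beside 1040 and 2 beside 1851, or 0.246% ± 0.195. The Rab GTPase-binding gene yip3 was at 0.594% ± 0.319. The SNARE gene syb1 (SPAC6G9.11), a synaptobrevin that docks vesicles for fusion, had 6 beside 1105 and 19 beside 1703, or 0.822% ± 0.398. The gene sec13, a shared component of the COPII coat and the nuclear pore, was at 0.887% ± 0.241. The gene nearest the threshold was vma6 (SPAC17A2.03c), for a subunit of the proton pump that acidifies the vacuole, at 0.988% ± 0.270 from 2 and 5 premature counts.

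Mitochondrial genes of the set included 3 subunits of the ATP synthase. The gene atp4 (SPBC1604.07), for a stalk subunit, had 3 premature beside 501 mature counts and 5 beside 1097, or 0.524% ± 0.100. The genes atp17 (SPBC1604.11) and atp15 (SPBC31F10.15c), for subunits f and epsilon, were at 0.713% ± 0.0556 and 0.812% ± 0.138. Each of these SDs was well below the mean, with 24 premature counts in atp17 and 29 in atp15 over both libraries. Of 6 measured and eligible genes with ATP synthase products, the fourth subunit gene, atp3 for gamma, was at 1.24% ± 0.113. The assembly factor genes ina17 and fmc1 were at 2.91% ± 0.0952 and 44.2% ± 4.58. The set also held shy1 (SPBC1215.01), which assists cytochrome c oxidase assembly, at 0.495% ± 0.131. The import oxidase gene mia40 was at 0.780% ± 0.664 and the D-lactate dehydrogenase gene dld2 at 0.521% ± 0.737.

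Nuclear pore and nuclear transport products were found in npp106, nup124, nup44, kap104 and nxt1, besides sec13. Counts were low in several. The nucleoporin gene npp106 (SPCC1739.14) had 0 premature beside 61 mature counts in replicate 1 and 1 beside 107 in replicate 2. The nucleoporin gene nup124 had 0 beside 78 and 1 beside 81, and the import receptor gene kap104 (SPAC2F3.06c) had 0 beside 104 and 2 beside 151. In these 3 genes the whole value thus rests on 1 or 2 reads of replicate 2. The gene nup44 (SPBC19G7.15), just inside the threshold, had 2 beside 367 and 8 beside 555, or 0.981% ± 0.622. The mRNA export factor gene nxt1 (SPAPB1A10.03) had 1 beside 316 and 4 beside 415, or 0.635% ± 0.452. Of 15 measured and eligible genes with such products, 6 were under 1% and the median was 2.18%. The karyopherin gene nmd5 was at 66.6% ± 1.51 and nup189 at 44.6% ± 7.65.

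**Figure D2:**
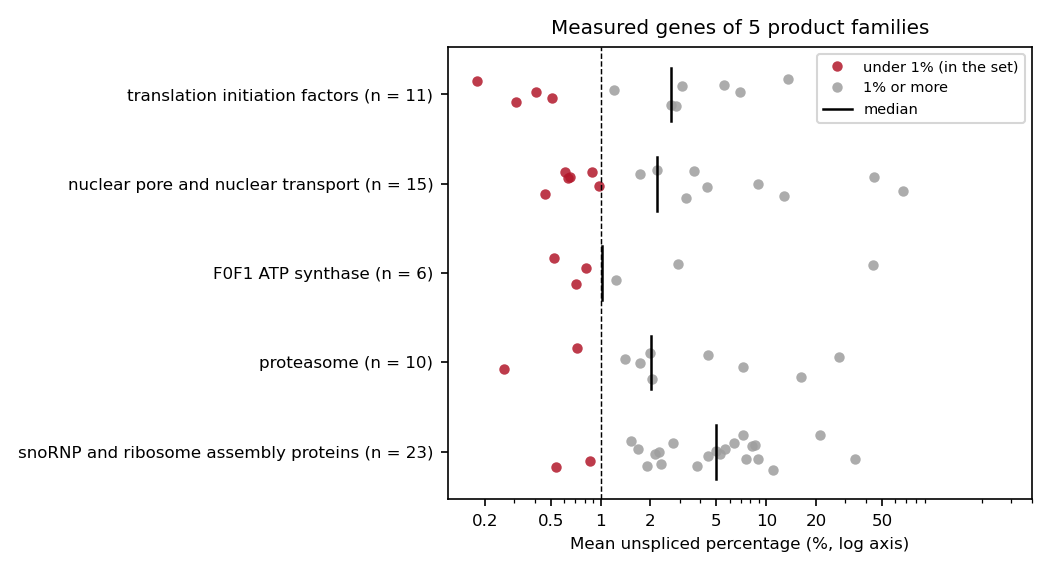
Mean unspliced percentage (x axis, log scale, %) of the measured and eligible genes in 5 families defined by RefSeq product words (y axis), with genes of the set in red, others in grey and the family median as a black bar. Every family spans the 1% line, from 0.180% (int6) to 66.6% (nmd5).

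Nucleolar and RNA-binding genes included some of the deepest junction counts in the set. The gene snu13 (SPAC607.03c), a protein of the U3 snoRNP that also belongs to the spliceosomal U4 snRNP, had 38 premature beside 7519 mature counts in replicate 1. Replicate 2 held 82 beside 14264, for a mean of 0.537% ± 0.0486. The gene nop10 (SPAP27G11.13c), of the snoRNPs that guide pseudouridylation, had 25 beside 2384 and 27 beside 3943, or 0.859% ± 0.253. The libraries differed little for snu13 and fell on either side of 1% for nop10. Of 23 measured and eligible genes with snoRNP or ribosome assembly products, these 2 were under 1% and the median was 4.95%. The product words miss bms1, nop12 and mak16, described below, and may also miss genes at 1% or more. The count therefore does not give the share of all ribosome assembly genes.

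Further genes of this kind were bms1, nop12 and mak16, which act in ribosome assembly. The GTP-binding protein gene bms1 (SPBC31E1.06) had 0 premature beside 118 mature counts and 3 beside 199, or 0.743% ± 1.05. The genes nop12 and mak16 were at 0.918% ± 0.135 and 0.921% ± 0.0330. The La protein gene sla1 (SPAC57A10.10c), which binds the ends of new RNA polymerase III transcripts, had 10 beside 1248 and 12 beside 1881, or 0.714% ± 0.114. The ribonuclease H2 subunit gene rnh202 was at 0.910% ± 0.300, and like ats1 it has no RefSeq intron.

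Cytoskeleton and division were represented by nda2 (SPBC16A3.15c), an alpha tubulin, at 0.617% ± 0.119, with 4 premature beside 566 mature counts and 5 beside 933. The cytokinesis gene cyk3 had 10 beside 876 and 4 beside 1404, so that the shallower library held more premature reads, or 0.706% ± 0.597. The gene cap1, for a protein that binds adenylyl cyclase and actin, was at 0.943% ± 0.212.

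Genes with no clear group completed the set. The acetyltransferase-like gene SPBC577.03c had the most counts, with 73 premature beside 9677 mature in replicate 1 and 93 beside 20768 in replicate 2, or 0.597% ± 0.214. RefSeq places the ribosomal protein gene rpl3801 over part of it on the opposite strand. The gene psg1 (SPBC21C3.17c) had the largest gap of the 47, with 0 beside 268 and 7 beside 381, or 0.902% ± 1.28. The metal homeostasis gene bsd1 (SPAC328.07c) had 0 beside 89 and 1 beside 121, and big1 was at 0.616% ± 0.282. The uncharacterised gene SPAC22H10.08 had 0 beside 133 and 2 beside 198. The ABC protein gene SPBC16H5.08c had 7 beside 521 and 6 beside 1149, or 0.923% ± 0.570.

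Just outside the threshold lay tef5 (SPCC1450.04), a subunit of the exchange factor of elongation factor eEF1, at 1.04% ± 0.349. The homoserine dehydrogenase gene hom6 was also at 1.04%, ± 0.364, and the AAA ATPase gene rvb1 at 1.07% ± 0.326. Their gap to vma6 was smaller than their own SDs, so the threshold does not fall in a break of the distribution.

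Function groups were also counted by fixed product words and symbol prefixes, in which each gene took the first group it matched. Translation held 4 of the 47 genes (8.51%) and 12 of the 690 other eligible genes (1.74%). Protein folding and turnover held 5 (10.6%) against 42 (6.09%), and vesicle traffic 4 (8.51%) against 29 (4.20%). Vesicle traffic took in hmt1 by the word for vacuole in its product name. It took in yap18 only because that symbol was itself on the prefix list, so this share is partly set by the list. Groups with a smaller share in the set were RNA processing, with 1 (nxt1, 2.13%) against 56 (8.12%), and metabolic enzymes, with 3 (6.38%) against 98 (14.2%). The RNA processing words miss snu13, nop10, bms1, nop12, mak16 and sla1, whose product names lack them. They also miss snoRNP products among the other eligible genes, so this share does not show that such genes are scarce in the set. Signalling, cytoskeleton and cell cycle held 2 (4.26%) against 59 (8.55%), and transcription and chromatin 2 (4.26%) against 51 (7.39%). Mitochondria and respiration held 1 (2.13%) against 28 (4.06%), a count that misses the ATP synthase subunits because their product names lack its words. Membrane transport held 0 against 16. Another 23 genes of the set fell under other named genes and 2 under genes without a symbol, against 242 and 57. Shares in so small a set move by about 2 points with each gene, and no test was made.

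Exonic counts, which did not enter the rule, were higher in the set. Scaled to the library's exonic total as CPM, the median was 863 in replicate 1 and 797 in replicate 2, against 428 and 390 for the other eligible genes. The median over genes of exonic CPM per kilobase of RefSeq exon was 517 in the set and 258 in the others. Reads start at designed primers, so scaling by length is only approximate here. Of the 47 genes, 42 lay above the median of the others on the CPM scale. The 35 ribosomal genes under 1% had higher medians, 4578 CPM and 8603 CPM per kilobase.

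Among the 47 genes the exonic scale spanned from 56.9 to 4179 CPM. The 5 with the highest CPM were pli1, tif301 (24310 and 40551 exonic counts), tif212 (22714 and 39016), snu13 (17108 and 30867) and tif307 (16757 and 28658). Those with the fewest were nxt1 (327 and 575), bsd1 (1852 and 2820), SPAC22H10.08 (2272 and 3449), ats1 (2371 and 3651) and psg1 (2534 and 3545). The export factor gene nxt1 lay well below the others, the next lowest being bsd1 at 300.6 CPM. Across all 714 eligible genes with 1 intron, the unspliced percentage and exonic CPM had a Spearman rho of -0.46. These values share their libraries, and within the set the rule leaves too narrow a range to read such a relation.

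With eligible genes ordered by exonic CPM and cut into 4 groups of near-equal size, 1 of 185 genes (0.541%) in the lowest group was in the set, then 5 of 184 and 15 of 184, and 26 of 184 (14.1%) in the highest. Junction depth moves with this order. The share in the set was 3.70% (7 of 189) where the smaller library held 50 to under 100 counts, and 25% (10 of 40) at 1000 or more. The part that depth plays in the order by exonic counts was not tested. Mature and premature counts per 100 exonic counts were alike in both sets of genes, with medians of 7.24 in the set and 7.14 in the others. They ranged from 0.233 in pli1 to 84.9 in nxt1, so exonic counts do not give the depth at a junction. The ratio of exonic counts between libraries had a median log2 of -0.10 in the set and -0.13 over 1123 genes, which is a shift of 0.03.

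**Figure D3:**
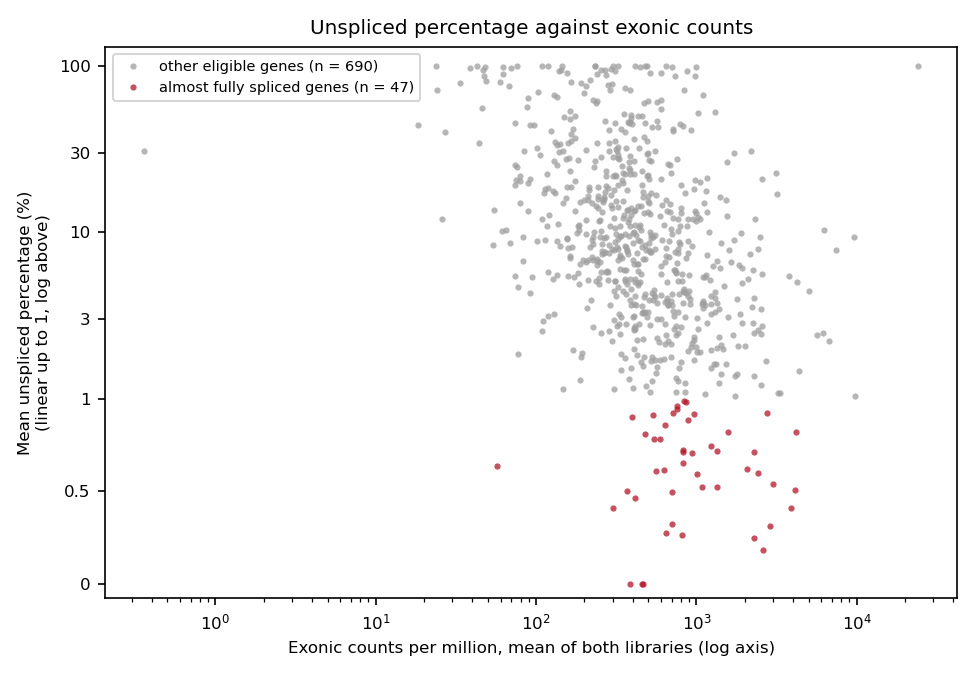
Mean unspliced percentage (y axis, linear to 1% and logarithmic above) against exonic CPM (x axis, log scale, mean of both libraries) for 47 almost fully spliced genes in red and 690 other eligible genes in grey. Of the red points, 42 lie right of the grey median on the x axis, and nxt1 is the isolated point at 56.9.

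Introns of the set were short and none was long. RefSeq annotates exactly 1 intron, in coding sequence, in 45 of the 47 genes. Their median length was 56 nt, with quartiles of 47 and 75 nt, against 71 nt (53 to 139) for 669 other eligible genes with 1 intron. No intron of the set exceeded 162 nt, whereas 99 of the 669 (14.8%) were over 200 nt. Ribosomal genes under 1% shared this, with a median of 60.5 nt over 34 introns and a longest of 190 nt. Introns of 45 nt or less made up 22.2% of the set (10 of 45) and 11.7% of the others (78 of 669), but 5.88% (2 of 34) in ribosomal genes under 1%.

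The shortest introns were those of ubp3, tif307 at 41 nt, rpt6 at 42 nt, and nup124 and vma6 at 43 nt each. The longest were those of npp106 at 162 nt, snu13 at 150 nt, hmt1 and kap104 at 122 nt, and SPBC16H5.08c at 112 nt. Of these long ones, snu13 had the most counts, and SPBC16H5.08c had 521 and 1149 mature counts. The genes npp106, hmt1 and kap104 had 61 to 151 mature counts per library. Across the 714 eligible genes, intron length and unspliced percentage had a Spearman rho of 0.22. In the highest of the 4 groups by exonic CPM, the 26 introns of the set had a median of 52 nt and the 155 others 116 nt. In the next group the medians were 63 nt (14 introns) and 79 nt (164 introns). In the second-lowest group they were alike, at 62 nt (4 introns) and 63.5 nt (176 introns). The lowest group held 1 intron of the set, of 52 nt, beside a median of 65 nt for 174 others.

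**Figure D4:**
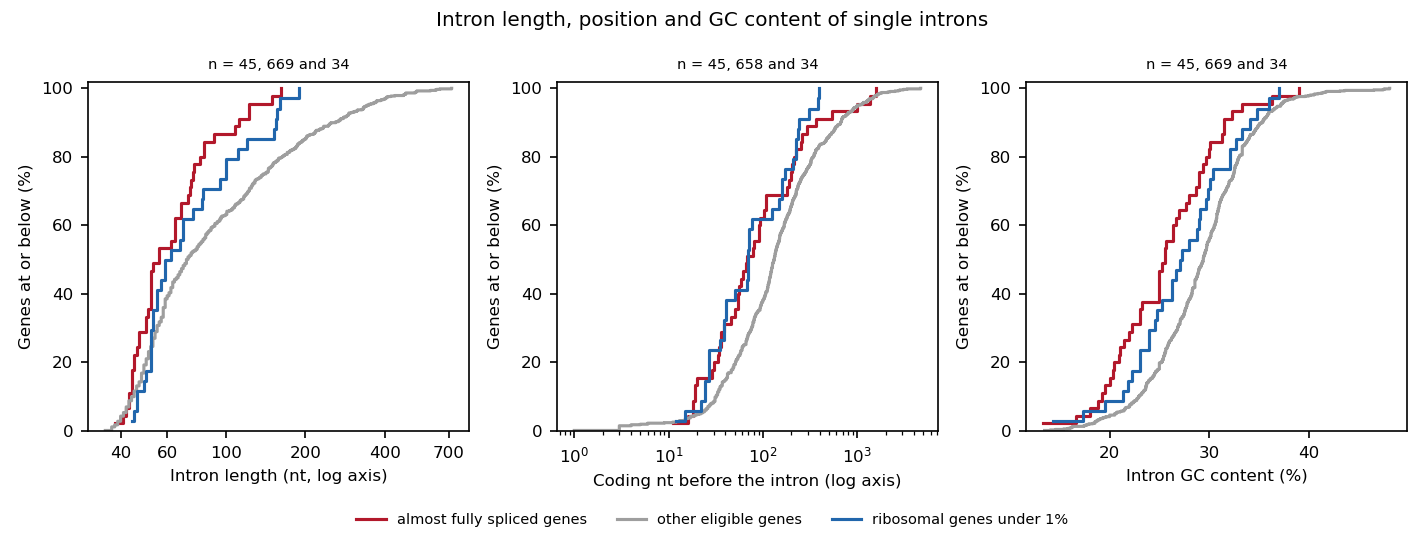
Cumulative percentage of genes (y axis) by intron length (nt, log scale), coding nucleotides before the intron (log scale) and intron GC content (%), for single introns of the almost fully spliced genes (red), other eligible genes (grey) and ribosomal genes under 1% (blue). The red curve ends at 162 nt for length, where the grey curve still has longer introns, and lies left of the grey one over most of each panel.

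The branch motif CTAAC was frequent in the set. It was the motif nearest the intron's end in 32 of 45 introns (71.1%), against 298 of 669 (44.5%) in the other eligible genes and 23 of 34 (67.6%) in ribosomal genes under 1%. The sequence CTAAT was nearest in 4 of 45 (8.89%) against 174 of 669 (26.0%). CTGAC was nearest in 1 intron, that of psg1, against 38 (5.68%), and CTGAT in 0 against 15 (2.24%). None of the 4 was found in 8 introns of the set. Any of the 4 was held by 82.2% and 78.5%, so the difference lay in which motif was present. From its adenosine, the fourth base, to the intron's end there were 11 nt at the median in the set and 12 nt in the others.

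Median unspliced percentages by motif lay closer together than the shares of genes in the set. The 330 eligible introns with CTAAC had a median of 7.84% and the 178 with CTAAT had 7.73%. The medians were 8.15% for the 39 with CTGAC, 7.48% for the 15 with CTGAT and 9.16% for the 152 with none. The share of genes in the set was 9.70% for CTAAC, 2.25% for CTAAT, 2.56% for CTGAC and 5.26% for none. CTAAC introns were longer than CTAAT introns, with a median of 83 nt against 67.5 nt. Within introns of 60 nt or less the excess of CTAAC held in both length classes, at 50% against 26.9% up to 45 nt and 71.4% against 35.5% above that. In the highest group by exonic CPM it was 76.9% against 47.7%.

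At the 5′ splice site, GTATGT opened 16 of 45 introns of the set (35.6%) and 151 of 669 others (22.6%). The more common GTAAGT opened 13 (28.9%) and 238 (35.6%). In ribosomal genes under 1%, GTATGT opened 11 of 34 (32.4%) and GTAAGT 18 (52.9%). The remaining sites in the set were GTAAGA in 5 introns, GTATGA in 3, GTACGT in 2, GTAAGC in 2, and 1 each of GTAAGG and GTATGG and GTATGC. The last was GTTCGT, in cyk3. At the 3′ end TAG closed 80.0% in the set and 78.3% in the others. Intron GC content had a median of 25.5% against 29.4%, and 27.2% in ribosomal genes under 1%.

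Introns of the set lay early in the coding sequence. A median of 67 coding nucleotides preceded them, against 131 in 658 other eligible genes with a single coding intron. Within the first 100 coding nucleotides lay 28 of 45 (62.2%) against 252 of 658 (38.3%), and 21 of 34 (61.8%) in ribosomal genes under 1%. In tif307, 11 coding nucleotides came before the intron, and in dld2 it lay at 98.9% of the coding sequence. If kept, the intron would place a stop codon ahead of the normal one in 45 of 45 genes and in 646 of 658 (98.2%) of the others. An in-frame stop would overlap the kept intron in 40 of 45 (88.9%) and 608 of 658 (92.4%). By these annotations nearly all measured coding introns share this feature.

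Of eligible introns that had CTAAC, were 100 nt or shorter and had 100 or fewer coding nucleotides before them, 19 of 64 (29.7%) belonged to the set, against 45 of 714 (6.30%) in all. This combination was chosen after its values were seen. The 64 introns had a median of 2.78% unspliced, and 14 of them were over 10%, up to 99.4%.

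Other annotated genes overlapped 43 of the 47, most of them noncoding RNAs on the opposite strand. Overlaps were counted for the set only, so these counts are not read as particular to it. The intron itself was overlapped in 13 genes, in each case from the opposite strand. In brl2 the overlapping gene was the exocyst gene sec8. Whether counting used the strand is not given in the sources used here, so reads of such partners cannot be told apart from those of the gene.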

How the data were processed

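The authors deposited raw counts per gene in 3 classes, exonic, mature and premature, 1 library per file, per the file headers. Trimmomatic 0.35 and HISAT2 2.1.0 are listed beside HTSeq, per the submitters' processing notes. Not given in the sources used here are the class definitions, build, annotation, strand setting and any molecular identifiers.

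Genes were matched to RefSeq (ASM294v3) by identifier, 1141 of 1144. Gaps under 20 nt were not taken as introns. Unspliced percentages came from counts as deposited, with Wilson intervals at 95% and 3 counts as the limit for a 0. Libraries were compared by Fisher exact test (scipy 1.17.1, Python 3.11.15), checked on simulated data with binomial counting noise only. The overdispersion between the real libraries, 1.65, was not part of that check. Alternative scalings came from DESeq2 1.42.0 and edgeR 4.0.16 (R 4.3.3). Counting noise is all these tests cover.

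The gene set, function groups and features were chosen with earlier results of these data known, and the 5 product families after values were seen. Words naming transcription factors were kept out of the translation group. Every gene of the set is named. Values per library follow a rule: the 10 lowest means, 8 largest sums, 5 longest and 5 shortest introns, 5 highest and 5 lowest exonic counts, 3 on either side of the threshold and the 3 largest gaps, and further genes for their group.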

Additional observations from a re-analysis of the deposited data

How the results depend on the processing

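No paired analysis was possible because the series has 1 group. The set held 52 genes at a minimum of 20 counts, 34 at 200 and 46 with pooled counts, 44 of these shared. It held 27 genes when each library had to be under 1%, 13 at a threshold of 0.5% and 105 at 2%. With 1 library left out it held 48 to 54, of which 35 and 39 were shared. The median unspliced percentage was 0.613% (minimum of 20), 0.710% (200), 0.619% (pooled), 0.506% (both under 1%), 0.276% (0.5%), 1.09% (2%) and 0.544% to 0.591% (1 library left out), which follows from the threshold and the genes admitted. Median exonic CPM was 702 at 0.5% and 780 at 2%, and 747 to 794 with 1 library left out. Median intron length was 63 nt with pooled counts, 59 nt with both under 1%, 54 nt at 0.5%, 58 nt at 2%, and 60.5 to 62 nt with 1 library left out. All stayed under the 71 nt of the other eligible genes. The share of CTAAC, a measure chosen after seeing the data, ran from 58.3% (0.5%) to 75.8% (200). Fisher calls over all genes were 14 at each minimum. A normal test with overdispersion scaling, which changes both the test and its error, made 8 calls, and the cause was not tested. The median log2 ratio of exonic counts between libraries turned from -0.10 to 0.026 with DESeq2 size factors and 0.022 with edgeR TMM factors, and the median of all genes shifted with it. Depth is a limit for most of the set. In 7 genes a library held under 100 counts, and in 33 both libraries together held 10 or fewer premature counts.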
